A study of Mus musculus with 9 samples.

Results

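Long non-coding RNAs are transcripts that are made and often spliced like mRNAs but carry no long open reading frame. Many act in the nucleus on chromatin, splicing or the transcription of neighbouring genes, and others act in the cytoplasm by binding proteins or small RNAs. As a class they are known to be less abundant and more restricted to single tissues than mRNAs. A large intergenic non-coding RNA, or lincRNA, is one that lies between protein-coding genes. Acute lung injury is inflammation of the lung with leak of fluid into the air spaces, and lipopolysaccharide (LPS), a component of the outer membrane of Gram-negative bacteria, is a common way to cause it in mice.

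The long non-coding RNA (lncRNA) probes described here were all probes of a mouse lncRNA and mRNA expression array whose names start with ASMM10LNC or contain linc or LINC, with the control spots of the array left out. There were 29618 such probes among 60691 probes in all. By name, 27812 were ASMM10LNC probes, 1092 were humanlincRNA probes, 639 were mouselincRNA probes and 75 were MM9LINCRNAEXON probes. They were set against the 22359 probes whose names start with ASMM10AP, a class whose meaning the files do not spell out. The design held 1 spot for each lncRNA probe. Each lncRNA probe carried only the array maker's identifier: the files pair none of the 29618 with a gene symbol, an accession, a genome position or a sequence. The report therefore describes classes of probes and single identifiers, and it names no lncRNA gene.

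Lung RNA of 9 male C57BL/6J mice, 20 weeks old by their labels, was measured on 1 array each. The 3 control mice had 12 weeks of normal diet, were given sterile saline and carry a labelled body weight of 31 g. The 3 HFD mice had 12 weeks of a high-fat diet with 60% of its calories from fat, were given saline and carry a labelled weight of 45 g. The 3 HFD+LPS mice had the same diet and body weight and were given LPS into the trachea. All mice were anaesthetised with pentobarbital and killed 24 h later, and the tissue was the upper and middle lobes of the right lung. There were no mice on normal diet with LPS, so an effect of LPS could be read only on the high-fat diet. The comparison of HFD with control asks what the diet changed, that of HFD+LPS with HFD what LPS changed in obese mice, and that of HFD+LPS with control what both changed together. Arrays of whole lung cannot tell fewer cells of a type from less RNA per cell. The lung and its cell types could not be checked by markers, because only 50 probes carry an accession and none of the 46 that could be named was among the 43 lung cell type markers looked for.

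The arrays differed in quality, and this touches the results below. A probe counted as detected where the scanner software marked its signal as well above background. Over all probes that share ran from 32.6% on HFD+LPS replicate 2 to 55.6% on HFD replicate 3. The median signal of the negative control spots was 7.53 on HFD+LPS replicate 2 and between 2.10 and 4.02 on the other 8 arrays. By its position on the slide, each array lay in row 1 or row 2: row 2 held HFD replicates 2 and 3 with HFD+LPS replicates 1 and 2, and row 1 held the rest. The headers name no slide. Arrays that share a scan start are treated here as 1 slide, and HFD+LPS replicate 3 had a scan start of its own while the other 8 arrays shared theirs, called the first slide below. No spot kept for the levels was marked as saturated on any array. Control spots and outlier spots were not counted. With so few mice a group, the number of arrays limits the precision of every comparison.

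lncRNA probes were detected less often than ASMM10AP probes in every mouse. The share of lncRNA probes well above background was 35.8%, 45.1% and 45.3% on the control arrays, 44.5%, 43.6% and 51.5% on the HFD arrays and 41.0%, 27.8% and 48.5% on the HFD+LPS arrays. The group means were 42.1% ± 5.47 in control, 46.5% ± 4.31 in HFD and 39.1% ± 10.5 in HFD+LPS (SD, n = 3 each). The 3 groups overlapped, and the lowest share was that of HFD+LPS replicate 2. For the ASMM10AP probes the group means were 56.5% ± 5.40, 61.1% ± 3.88 and 53.3% ± 10.2. The lncRNA share was below the ASMM10AP share on 9 of 9 arrays, by 14.4 percentage points on average, with a difference of -14.4 ± 0.51 (SD) that ran only from -15.0 to -13.4 (exact sign-flip permutation test over the 9 arrays, two-sided, p = 0.00391, adjusted p = 0.00391 over 6 such tests, the smallest that 512 sign patterns can give). The same probes sit on every array, so these sign-flip tests show only that a gap repeats between arrays: a difference in how brightly the probes of the classes respond would repeat as well. Detection moved up and down with the array, while the gap between the classes stayed nearly constant.

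Within the lncRNA probes the names divided into probes that were often seen and probes that were rarely seen. ASMM10LNC probes were well above background for 44.3% ± 7.31 of their number (SD over 9 arrays), humanlincRNA probes for 15.2% ± 3.62, mouselincRNA probes for 17.1% ± 4.01 and MM9LINCRNAEXON probes for 21.5% ± 6.61. Together, the 1806 probes with linc or LINC in the name were 28.2 percentage points below the ASMM10LNC probes, with a difference of -28.2 ± 3.84 that held its direction on 9 of 9 arrays (exact sign-flip permutation test, two-sided, p = 0.00391, adjusted p = 0.00391). That gap was -28.3 ± 2.95 points in control, -30.9 ± 2.12 in HFD and -25.3 ± 4.77 in HFD+LPS (SD, n = 3 each), without overlap between HFD and HFD+LPS (exact permutation test, two-sided, p = 0.1, adjusted p = 0.36 over 36 such tests). It was computed on the same arrays whose detection differed, and the part of array quality in it was not tested. The 15 MM9NEGATIVE probes of the design, a control class, were well above background 0 times of 15 on every array, which allows a share of up to 20.0%.

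**Figure D1:**
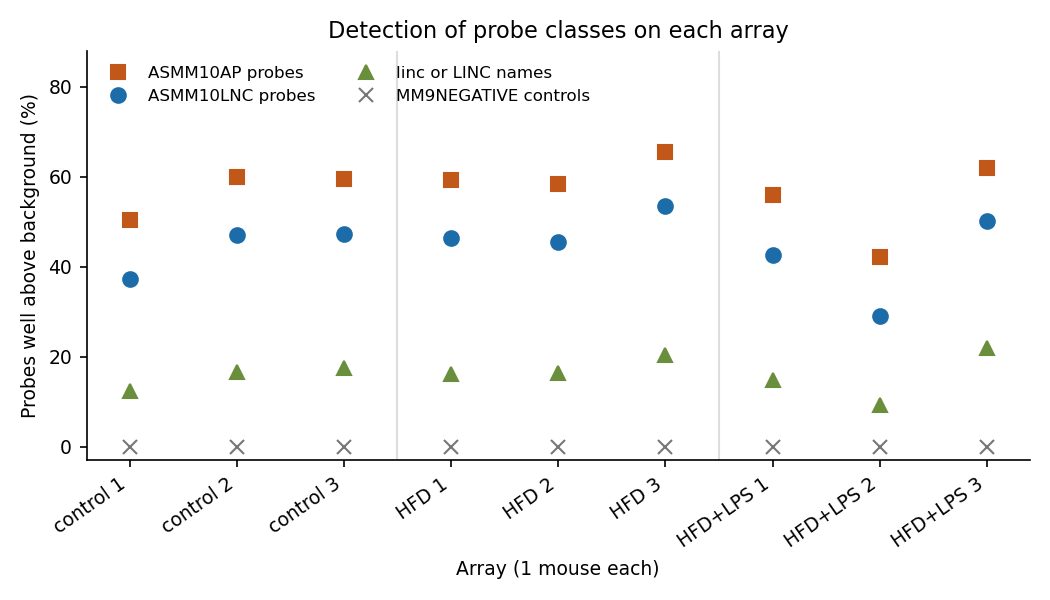
Share of probes well above background (percent, vertical axis) on each of the 9 arrays (horizontal axis, 3 mice a group) for ASMM10AP probes, ASMM10LNC probes, probes with linc or LINC in the name and the MM9NEGATIVE control class. On each array the order was ASMM10AP, ASMM10LNC, linc names, and 0 for MM9NEGATIVE, and HFD+LPS replicate 2 was lowest in the 3 other classes.

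Counted over the mice, detection was mostly all or none. Of the 29618 lncRNA probes, 11540 (39.0%) were well above background on none of the 9 arrays and 7387 (24.9%) on all 9. Of the ASMM10AP probes, 5988 (26.8%) were seen on none and 8623 (38.6%) on all 9. Among humanlincRNA probes 773 (70.8%) were seen on none and 74 (6.78%) on all 9, and among mouselincRNA probes 429 (67.1%) on none and 50 (7.82%) on all 9. The remaining lncRNA probes were spread over the counts in between, with 2659 (8.98%) seen on 1 array only.

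The level of a probe is given as the log2 of its processed signal minus the 75th percentile over all probes of that array. The median level of the lncRNA probes was -2.54 ± 0.15 (SD over 9 arrays), against -1.38 ± 0.07 for the ASMM10AP probes. The difference between the class medians of signal was -1.16 ± 0.10 and had the same direction on 9 of 9 arrays (exact sign-flip permutation test, two-sided, p = 0.00391, adjusted p = 0.00391). It is a difference between probe signals and, for the reason just given, not a measure of how abundant the RNAs of the classes are. Among probes well above background on all 9 arrays the distance was smaller. Their class medians were 0.98 ± 0.03 for lncRNA and 1.47 ± 0.07 for ASMM10AP, a difference of -0.49 ± 0.07 with the same direction on 9 of 9 arrays (exact sign-flip permutation test, p = 0.00391, adjusted p = 0.00391). The upper tail of the lncRNA probes nevertheless reached high. The 99th percentile was 5.47 ± 0.06 for lncRNA and 6.33 ± 0.08 for ASMM10AP probes. The lncRNA probes gave 34.8% ± 1.31 of the summed signal of all probes, and the 100 brightest gave 25.3% ± 1.71 of the signal of the class.

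The brightest lncRNA probe varied little between mice of a group. ASMM10LNC1A102094572V4 had the highest mean level of the class, with 9.79, 9.71 and 9.72 on the control arrays, 9.67, 9.64 and 9.61 on the HFD arrays and 9.14, 9.21 and 9.21 on the HFD+LPS arrays. The HFD+LPS values lay below all others without overlap, and the pooled SD between mice was 0.04. Its log2 fold change was -0.45 ± 0.18 (SE) for HFD+LPS against HFD and -0.55 ± 0.18 against control, and neither passed the test across all probes (limma, Benjamini-Hochberg adjusted p = 0.23 and 0.0927). For this and the other probes named by their level, the files do not say which RNA they detect. ASMM10LNC1A100084440V4 had a mean level of 8.86 over 8 arrays and a pooled SD of 0.18, ASMM10LNC1A102582553V4 a mean of 8.68 and an SD of 0.09, and ASMM10LNC1A107169659V4 a mean of 8.23 and an SD of 0.10. ASMM10LNC1A100070734V4 had a mean of 8.48, but the scanner software marked its spot as an outlier on 5 arrays, so it had no value in HFD. At the other end, the largest spread among probes seen on all 9 arrays was that of ASMM10LNC1A100981076V4, with a pooled SD of 1.77. It read 4.09 in HFD replicate 2 and between -1.68 and 0.14 in the other 8 mice. ASMM10LNC1A100021508V4 followed with a pooled SD of 1.62 and values from -2.03 to 2.68 that overlapped between all groups.

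Over the class, the spread between mice of a group followed the level of the probe and differed little between lncRNA and ASMM10AP probes of like level. The median SD between mice was 0.37 for the 14230 lncRNA probes detected on 3 or more of the 9 arrays and 0.35 for the 13962 such ASMM10AP probes. When all such probes were cut into quintiles by mean level, the median SD of the lncRNA probes was 0.56, 0.41, 0.33, 0.29 and 0.27 from the dimmest to the brightest quintile, and that of the ASMM10AP probes 0.55, 0.41, 0.33, 0.30 and 0.28. Of the lncRNA probes 23.1% lay in the dimmest quintile and 15.3% in the brightest, against 16.4% and 24.9% of the ASMM10AP probes. The median SD of lncRNA probes within the HFD+LPS group was 0.38, above the 0.28 of control and the 0.28 of HFD. The same was true of ASMM10AP probes, at 0.37, 0.27 and 0.26. Each mouse had a single array, so this SD also holds differences between arrays. The HFD+LPS group held replicate 2, with a negative control signal of 7.53, and replicate 3, with a scan start of its own. Their part in the wider SD was not tested. For the probes with linc names the medians of the SD, for 121, 91, 37, 49 and 41 probes from the dimmest to the brightest quintile, were 0.64, 0.43, 0.34, 0.35 and 0.38, and their difference from the other classes was not tested.

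**Figure D2:**
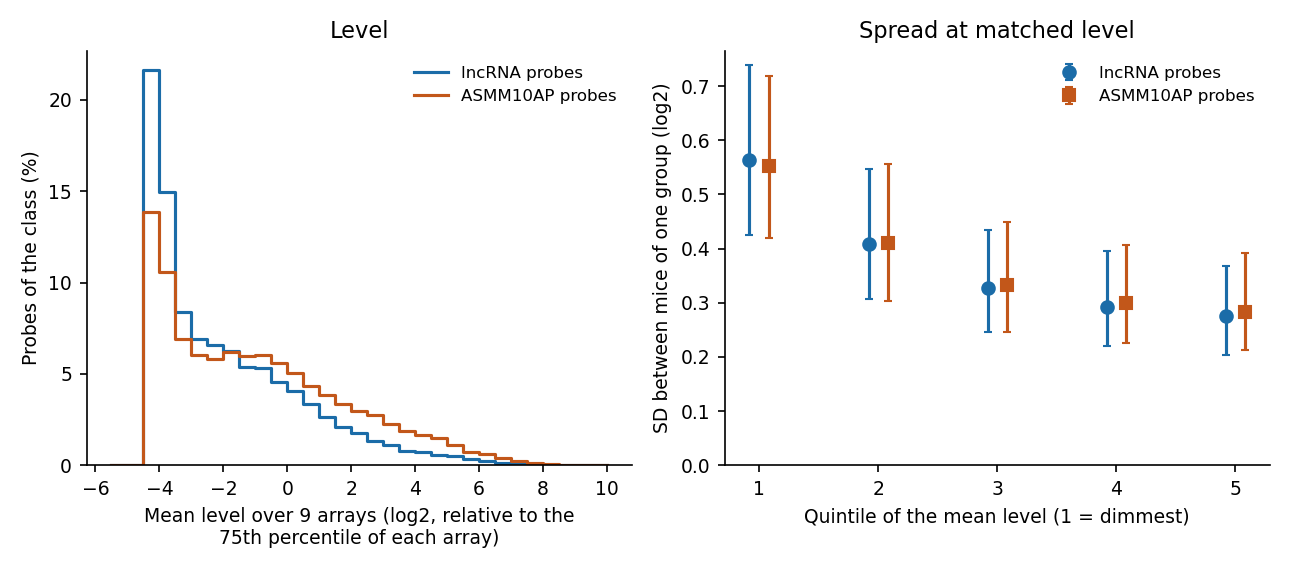
Left, share of the probes of each class (percent) by mean level over the 9 arrays in bins of 0.5 on the log2 scale. Right, median SD between mice of a group (log2) in quintiles of the mean level, with bars for the interquartile range. lncRNA probes pile up at the dim end, and in each quintile the medians of the classes lie within 0.01 of each other, rounded to 2 decimals, and far inside the interquartile ranges.

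The high-fat diet alone changed no lncRNA probe past the threshold. The comparison tested 13508 of the 29618 lncRNA probes, those detected on 3 or more of the 6 arrays with a value in both groups. A probe could enter through the group in which it was higher, so counts over the tested probes are given as descriptions. No lncRNA probe had an adjusted p under 0.05 (0 of 13508, limma with Benjamini-Hochberg adjustment over all 30454 probes tested), and the lowest adjusted p was 0.782. Over all probes 0.0% were called. At an unadjusted p under 0.05 there were 516 lncRNA probes (3.82%), against 4.47% of all probes tested. The methods' t-test gave 693 of 13508 lncRNA probes at its unadjusted threshold, against 1796 of all 30454 probes, and 0 of either after Benjamini-Hochberg adjustment. The median log2 fold change was 0.015 for lncRNA probes, 0.039 for ASMM10AP probes and 0.022 for all probes. Without overlap between the groups, 817 lncRNA probes were higher (6.05%, background 6.77%) and 584 were lower (4.32%, background 4.86%). These shares lay near those of all probes tested.

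The lncRNA probes with the lowest unadjusted p in this comparison are given as values only. ASMM10LNC1A101409545V4 read 5.98, 6.60 and 5.26 in control, 4.46, 3.74 and 4.15 in HFD and 3.34, 4.18 and 4.11 in HFD+LPS. The HFD values lay below the control values without overlap, with a log2 fold change of -1.83 ± 0.37 (SE, limma adjusted p = 0.872), and the HFD+LPS values overlapped those of HFD. ASMM10LNC1A100106452V4 was well above background in 3 of 3 control mice, at 0.21, -0.81 and -1.67, and in none of the other 6. Its HFD levels were at least 2.93-fold lower than its control levels, a bound for which any undetected value below the dimmest detected probe of its array was raised to that probe (adjusted p = 0.782). In the other direction, ASMM10LNC1A100016221V4 was well above background in 0 of 3 control and 3 of 3 HFD mice, at least 1.23-fold higher in HFD, and ASMM10LNC1A100052746V4 likewise, at least 1.20-fold higher (adjusted p = 0.782 for both).

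In obese mice LPS moved few lncRNA probes past the threshold. The count was below that of the ASMM10AP probes in this fit, and the difference was not tested. Of 13344 lncRNA probes tested, 18 were called, 9 higher and 9 lower in HFD+LPS (0.135%, limma adjusted p under 0.05). The background was 0.249% of the 30164 probes tested, 0.179% called higher and 0.0696% called lower. Among 13368 ASMM10AP probes 53 were called, 41 higher and 12 lower. All 18 lncRNA probes were ASMM10LNC probes, and none of the 311 tested probes with linc or LINC names was called. At an unadjusted p under 0.05 there were 2185 lncRNA probes (16.4%), against 18.0% of all probes tested. No overlap between the groups was seen for 1063 lncRNA probes that were higher (7.97%, background 10.1%) and 1733 that were lower (13.0%, background 12.6%).

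Of the 9 lncRNA probes that rose, 7 were well above background in 3 of 3 HFD mice, with log2 fold changes of 1.42 to 2.45. Another was seen in 1 of 3 HFD mice and 1 in none, so that its change has only a lower bound. Of the 9 that fell, 5 were well above background in none of the HFD+LPS mice and have only a bound. The other 4 were seen in 1 or 2 of 3 HFD+LPS mice, so that their fitted log2 fold changes, from -2.23 to -1.53, rest in part on undetected levels. No probe that fell was detected in all 3 HFD+LPS mice, and none of the 9 lay in the brighter quintiles 4 and 5 of the mean level. The adjusted p of the 18 probes ran from 0.0156 to 0.0451. The count rested on single arrays: it was 2, 5 and 2 without HFD replicates 1, 2 and 3, and 169, 1 and 28 without HFD+LPS replicates 1, 2 and 3. Over all probes the 75 calls moved the same way, to 11, 38 and 10 and to 477, 13 and 98 in these fits. Of the 18 probes, 0 were called again without HFD+LPS replicate 2, whose negative control signal was the highest, and 17 without HFD+LPS replicate 1. Within row 2 of the first slide, with 2 HFD and 2 HFD+LPS arrays, no lncRNA probe was called, and with the brightness of the array as a covariate 3 were. Over all probes these fits called 0 and 17. The part of brightness and negative control signal in the result was not tested further.

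Some called probes were detected in a single group of the 2 compared. Such a probe entered the test through the group in which it was high, so its adjusted p does not support the change by itself. With no filter on dim probes no lncRNA probe and no other probe was called at all. ASMM10LNC1A115427543V4 was of this kind. It was well above background on 3 of 3 HFD+LPS arrays, at -0.46, 0.18 and -0.51, and on none of the control arrays (-3.95, -4.45 and -3.28) or HFD arrays (-3.37, -3.89 and -4.86). The level with LPS was at least 4.14-fold higher than in HFD (limma adjusted p = 0.0156) and at least 3.47-fold higher than in control (adjusted p = 0.0129). With no filter on dim probes the adjusted p against HFD was 0.0903, and without control replicate 1 that against control was 0.0584. Against control it was 0.0816, 0.0959 and 0.0972 with no filter, the row block and the brightness covariate. No array in which the probe was detected could be left out, since the probe then fell under the detection filter. ASMM10LNC1A100021216V4 was well above background in all 9 mice. It read -0.24, -0.23 and -0.62 in control, -1.78, -1.12 and -0.11 in HFD and 1.30, 1.92 and 1.12 in HFD+LPS, so that every LPS value lay above every other. Its log2 fold change against HFD was 2.45 ± 0.39 (SE, adjusted p = 0.0428), which was past the threshold without HFD replicate 3 or HFD+LPS replicate 1 and was not without any of the other 4 arrays (adjusted p = 0.0554 to 0.159). It was also lost in 8 of 13 other settings, with adjusted p from 0.0502 with the authors' log2 values to 0.414 in row 2 of the first slide. Against control its log2 fold change was 1.81 (adjusted p = 0.0399, and 0.0519 to 0.127 in the 6 fits that left out an array). Of 12 other settings 6 lost this call, with adjusted p from 0.0517 with quantile normalisation to 0.269 with the brightness covariate.

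ASMM10LNC1A104139403V4 was called lower and entered the test through the HFD arrays alone. Its levels were 1.74, 0.47 and 1.10 in control, 1.72, -0.61 and -0.33 in HFD and -3.78, -3.13 and -4.62 in HFD+LPS, where it was not well above background on any array. It was at least 4.32-fold lower in HFD+LPS than in HFD (adjusted p = 0.0346) and at least 7.74-fold lower than in control (adjusted p = 0.015). Without HFD+LPS replicate 2 or 3 the adjusted p against HFD was 0.0875 and 0.0622. The call against HFD was also lost with normexp, no filter, a fit to the 6 arrays alone, the slide block, the row block and the brightness covariate (adjusted p = 0.122, 0.16, 0.0907, 0.0737, 0.051 and 0.0561), 6 of 11 such settings. The call against control was lost with no filter, the row block and the brightness covariate (adjusted p = 0.0861, 0.117 and 0.0972). ASMM10LNC1A100090197V4 read -0.25, 0.11 and 0.67 in control, 0.39, 0.28 and 0.19 in HFD and -1.37, -1.82 and -2.64 in HFD+LPS, where 1 of 3 arrays had it well above background. Its fitted log2 fold change against HFD was -2.23 ± 0.34 (SE, adjusted p = 0.0376), a size that rests on 2 undetected LPS values. It passed without HFD+LPS replicate 1 or 3 and did not without any of the other 4 arrays (adjusted p = 0.0823 to 0.173). It was lost in 6 of 12 other settings, with adjusted p from 0.0591 with the slide block to 0.327 in row 2 of the first slide. Against control it was -2.12 (adjusted p = 0.0267), lost without control replicate 1, control replicate 2 or HFD+LPS replicate 2 (adjusted p = 0.0778, 0.0814 and 0.0586) and with no filter, the row block or the brightness covariate (adjusted p = 0.15, 0.117 and 0.223).

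**Figure D3:**
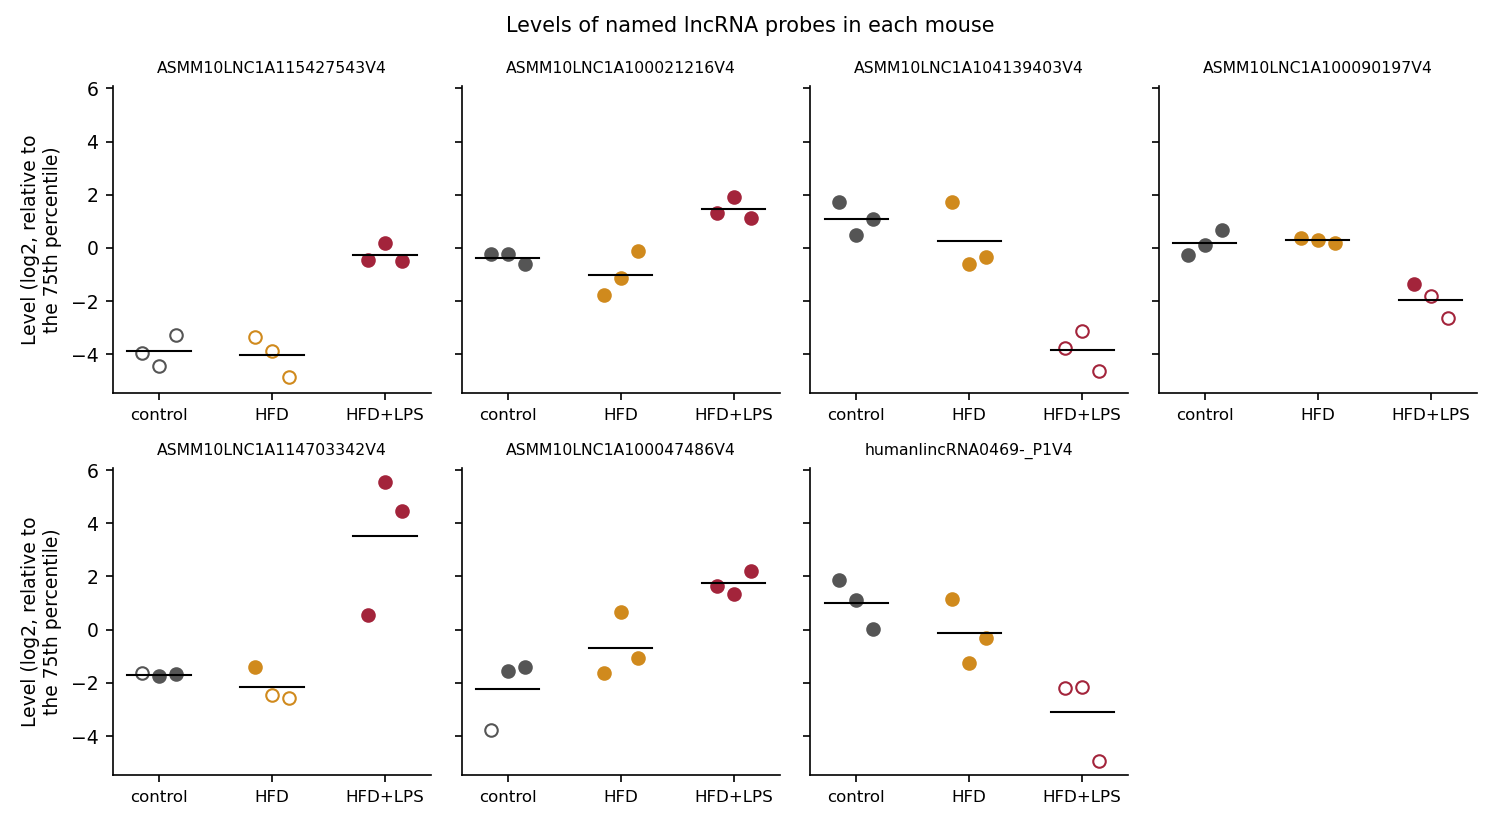
Level of 7 named lncRNA probes (log2, relative to the 75th percentile of each array) in each mouse of the control, HFD and HFD+LPS groups. Filled points were well above background and open points were not, and lines are group means. ASMM10LNC1A115427543V4 has filled points in HFD+LPS only, and ASMM10LNC1A104139403V4 and humanlincRNA0469-_P1V4 have open points in HFD+LPS only.

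The class medians lay close together, and they differed in the bright probes. For HFD+LPS against HFD the median log2 fold change was -0.087 for lncRNA probes, -0.0025 for ASMM10AP probes and -0.051 for all probes tested. In quintiles of the mean level, from the dimmest to the brightest, the lncRNA medians were -0.25, -0.14, -0.069, -0.0096 and -0.023. The ASMM10AP medians were -0.23, -0.14, -0.038, 0.061 and 0.14. The classes therefore ran together in the dim quintiles and apart in the bright ones, as the plot of median fold change by level shows. Against control, a comparison that shares the HFD+LPS arrays, the brightest quintile had medians of -0.059 for lncRNA and 0.18 for ASMM10AP probes. With arrays centred on the probes seen on all 9 of them, the median of all probes tested moved from -0.051 to -0.16 against HFD and from -0.018 to -0.15 against control, and the distance between the classes stayed, since a centring shifts every probe alike. The filter did matter: with no filter on dim probes the medians against HFD were 0.13 for lncRNA and 0.096 for ASMM10AP probes, so that both the sign and the order turned, and with probes seen on all 6 arrays they were 0.015 and 0.10. With normexp the distance between the classes against HFD was -0.049, against -0.085 here.

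**Figure D4:**
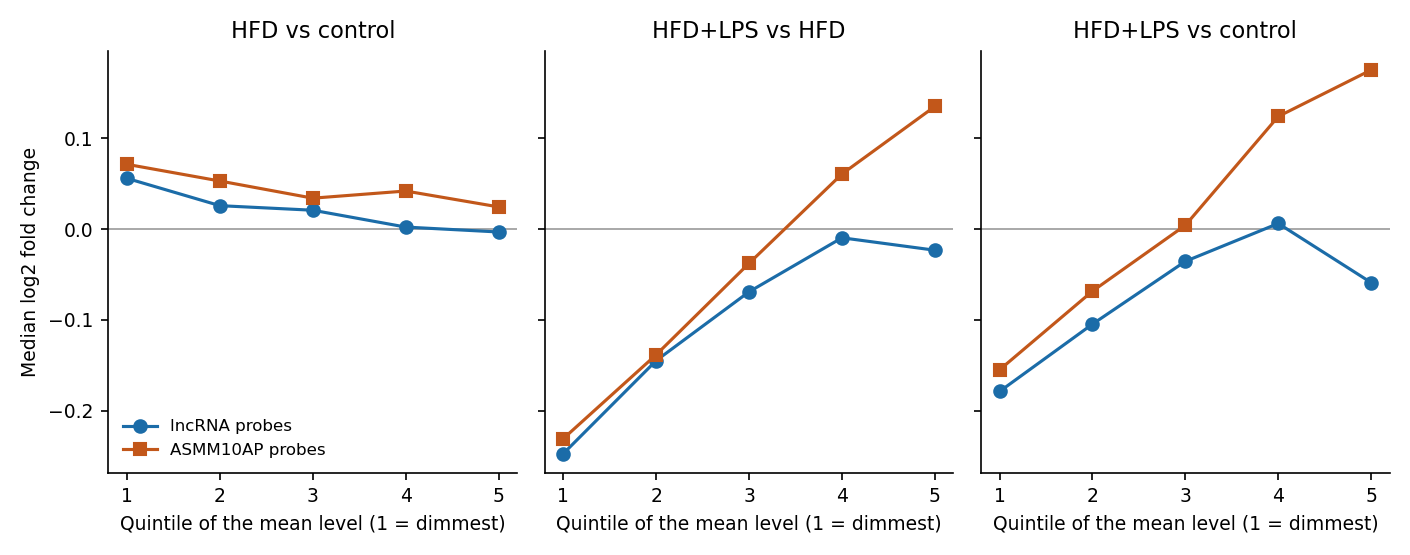
Median log2 fold change (vertical axis) of the tested lncRNA and ASMM10AP probes in quintiles of the mean level over all probes detected on 3 or more arrays (horizontal axis, 1 is dimmest), for each comparison. In HFD against control both lines lie between 0.00 and 0.07, and in the comparisons with LPS the lines separate in quintiles 4 and 5.

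Measured array by array, the distance between the classes was wider in every HFD+LPS mouse among probes seen on all 9 arrays, but not over all probes. Among probes well above background on all 9 arrays, the median lncRNA level minus the median ASMM10AP level was -0.42, -0.50 and -0.40 in control, -0.41, -0.49 and -0.48 in HFD and -0.57, -0.56 and -0.56 in HFD+LPS. The means were -0.44 ± 0.06, -0.46 ± 0.04 and -0.57 ± 0.01 (SD, n = 3 each), and the HFD+LPS values overlapped neither group. The difference from HFD was -0.11 (exact permutation test, two-sided, p = 0.1, the smallest that 3 against 3 arrays allow, adjusted p = 0.36 over 36 such tests), and the difference from control was -0.13 with the same p. Within row 2 of the first slide the values were -0.49 and -0.48 in HFD and -0.57 and -0.56 in HFD+LPS. The share of the summed signal that came from lncRNA probes was 35.7% ± 0.31 in control, 35.4% ± 0.35 in HFD and 33.4% ± 1.46 in HFD+LPS, again without overlap (exact permutation test, p = 0.1 against either group, adjusted p = 0.36). In the brightest quintile, the median deviation of lncRNA probes from their mean over the 9 arrays, minus that of ASMM10AP probes, was -0.12 ± 0.08 in HFD+LPS, 0.04 ± 0.06 in HFD and 0.07 ± 0.04 in control, without overlap (same p). In the dimmest quintile it was -0.01 ± 0.07, -0.01 ± 0.03 and 0.01 ± 0.02, with overlap. Over all probes, the median lncRNA level minus the median ASMM10AP level was -1.23 ± 0.13 in HFD+LPS, -1.10 ± 0.07 in HFD and -1.14 ± 0.07 in control. There the groups overlapped (exact permutation test, p = 0.2 against HFD and 0.6 against control, adjusted p = 0.6 and 0.84). None of these tests could reach 0.05 in this design.

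**Figure D5:**
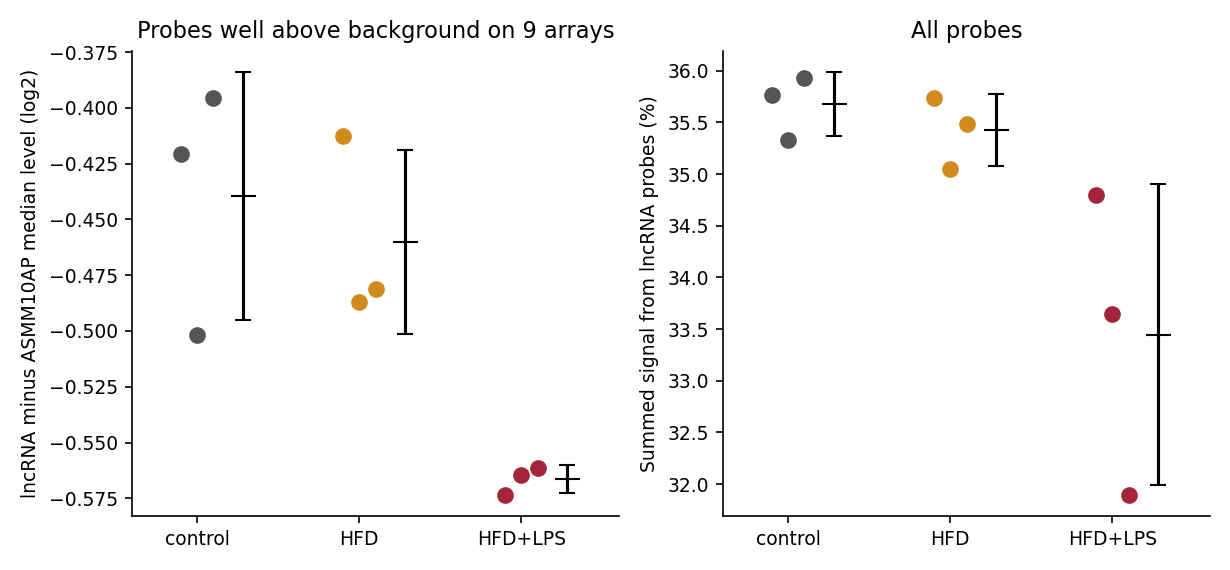
Left, median level of lncRNA minus that of ASMM10AP probes (log2) among probes well above background on all 9 arrays. Right, share of the summed signal of all probes that came from lncRNA probes (percent). Each point is a mouse, bars are mean ± SD (n = 3), and neither axis starts at 0. The 3 HFD+LPS mice lie below the 6 others in both.

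Compared with control, the mice with both diet and LPS had more called lncRNA probes, most of them lower in the main fit. Of 12599 lncRNA probes tested 425 were called (3.37%, limma adjusted p under 0.05), against 3.92% of all 28707 probes tested. There were 147 higher and 278 lower, 1.17% and 2.21% of the lncRNA probes tested, against a background of 1.78% higher and 2.14% lower. Among ASMM10AP probes 558 of 12831 were called, with 327 higher and 231 lower. By name, 412 of the called lncRNA probes were ASMM10LNC, 9 were humanlincRNA and 4 were mouselincRNA. Of these 13 probes with linc names, out of 279 tested, 1 was higher and 12 were lower. At an unadjusted p under 0.05 there were 2966 lncRNA probes (23.5%, background 25.5%), and without overlap 1437 were higher (11.4%, background 13.9%) and 2108 lower (16.7%, background 15.7%). The balance of directions depended on the scaling and the filter: the split was 147 higher and 278 lower here, 110 and 483 when arrays were centred on probes seen on all 9 arrays, and 277 and 211 after another background correction (normexp). With only probes seen on all 6 arrays it was 307 and 211. All probes swung alike, with 511 of 1126 calls higher here, 362 of 1433 with that centring, 1007 of 1477 with normexp and 966 of 1481 with that filter. Of the 147 that rose, 122 were well above background in 3 of 3 control mice, with a median log2 fold change of 1.25. Of the 278 that fell, 94 were well above background in 3 of 3 HFD+LPS mice, with a median of -1.55, and 60 were in none of them. The count was 2, 7 and 121 without control replicates 1, 2 and 3, and 367, 13 and 246 without HFD+LPS replicates 1, 2 and 3. The calls over all probes in these fits were 12, 22, 344, 1019, 41 and 674. With the row on the slide as a block no probe of any class was called, and all control arrays lay in row 1, as did 1 HFD+LPS array. With the brightness of the array as a covariate none was called either.

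The lncRNA probe with the largest rise against control was ASMM10LNC1A114703342V4, with -1.63, -1.76 and -1.68 in control, -1.39, -2.47 and -2.58 in HFD and 0.54, 5.56 and 4.45 in HFD+LPS. Every LPS mouse was above every other mouse, and replicate 1 was far below the other LPS mice. It was well above background in 2 of 3 control, 1 of 3 HFD and 3 of 3 HFD+LPS mice. Its log2 fold change against HFD was 5.66 and was not called (limma, adjusted p = 0.0519). Against control it was 5.21 ± 1.00 (SE, adjusted p = 0.0346). It passed in 1 of 6 fits that each left out an array, namely that without HFD+LPS replicate 1 (adjusted p = 0.00093), and not in the other 5 (adjusted p = 0.057 to 0.118). It was also lost with normexp, no filter, a fit to the 6 arrays alone, the slide block, the row block and the brightness covariate (adjusted p = 0.0508 to 0.225). ASMM10LNC1A100047486V4 read -3.78, -1.57 and -1.39 in control, -1.65, 0.65 and -1.08 in HFD and 1.66, 1.36 and 2.20 in HFD+LPS, a log2 fold change of 3.98 ± 0.69 (SE, adjusted p = 0.0287). It was well above background in 2 of 3 control mice and not in control replicate 1, the lowest of them, so the size of the change rests in part on an undetected level. Its adjusted p was 0.106, 0.0797 and 0.0613 without control replicate 1, control replicate 2 and HFD+LPS replicate 2. With no filter, the slide block, the row block and the brightness covariate it was 0.15, 0.055, 0.186 and 0.242. Against HFD the log2 fold change of this probe was 2.43 and was not called (limma, adjusted p = 0.127).

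Among the probes that fell against control and were detected in 3 of 3 mice of both groups, mouselincRNA0907-_P1V4 had the largest fall. It was picked after its values were seen. It read 3.77, 3.18 and 1.92 in control, 3.35, 0.36 and 1.60 in HFD and -0.14, -0.62 and -2.59 in HFD+LPS, so that the LPS values lay below all others. On HFD+LPS replicates 2 and 3 it lay near the dimmest detected levels of those arrays, -0.89 and -2.72. Its log2 fold change against HFD was -2.89 and was not called (limma, adjusted p = 0.127). Against control it was -4.07 ± 0.82 (SE, adjusted p = 0.0348). The call against control was lost without control replicate 1, control replicate 2, HFD+LPS replicate 2 or HFD+LPS replicate 3 (adjusted p = 0.128, 0.098, 0.0675 and 0.0557), and with the slide block, the row block, the brightness covariate or no filter (adjusted p = 0.0628, 0.203, 0.241 and 0.153). ASMM10LNC1A104139403V4 and humanlincRNA0469-_P1V4 were also called lower, but neither was detected in an HFD+LPS mouse and both entered the test through the control arrays alone. humanlincRNA0469-_P1V4 read 1.87, 1.11 and 0.02 in control, 1.17, -1.26 and -0.32 in HFD and -2.21, -2.17 and -4.95 in HFD+LPS, and it was well above background on the 6 arrays without LPS and on 0 of 3 with LPS. It was at least 7.20-fold lower in HFD+LPS than in control (adjusted p = 0.0347, and 0.0613 without HFD+LPS replicate 2). The call was lost with no filter, the slide block, the row block and the brightness covariate (adjusted p = 0.153, 0.0557, 0.19 and 0.241). The HFD mice lay between the other groups and overlapped control. The adjusted p against HFD, which uses the same LPS arrays, was 0.121. ASMM10LNC1A101409545V4, the probe with lower HFD values above, was also lower in HFD+LPS than in control, with a log2 fold change of -2.07 ± 0.37 (SE, adjusted p = 0.0291, and 0.11, 0.0873 and 0.0605 without control replicate 1, control replicate 2 and HFD+LPS replicate 2, and 0.153, 0.192 and 0.242 with no filter, the row block and the brightness covariate). This comparison uses the same control arrays by which the probe was picked. Against HFD its log2 fold change was -0.24 (limma, adjusted p = 0.769).

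Probes seen in every mouse of a group and in no mouse of another followed the array background. In HFD against control 117 lncRNA probes were gained (0.395%, against 0.395% of all probes) and 7 lost (background 0.0313%). In HFD+LPS against HFD 6 were gained (background 0.033%) and 209 lost (0.706%, background 0.705%). Against control 12 were gained (background 0.0478%) and 149 lost (background 0.481%). Without HFD+LPS replicate 2, the array with the lowest detection, the gains became 74 against HFD and 231 against control, while 214 and 152 were lost. Over all probes the gains in that setting were 0.279% and 0.792% and the losses 0.735% and 0.501%, against 0.250%, 0.780%, 0.722% and 0.513% of the lncRNA probes. Leaving out an array also makes a gain easier to reach, since fewer arrays must show the probe. No other array was left out here, so the part of this array in the gains was not tested.

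The linc names carry a strand, and many loci had a probe for each. The names covered 954 lincRNA loci, and 852 of them had a + and a - probe: 535 humanlincRNA, 307 mouselincRNA and 10 MM9LINCRNAEXON loci. The files do not say which strand of the genome a sign stands for, or which sign is that of the annotated transcript. On the 9 arrays both probes of a pair were well above background in 1.41% to 5.28% of pairs, 1 probe alone in 15.7% to 32.7% and neither in 62.0% to 82.9%. Over all mice, 411 pairs (48.2%) were seen with neither probe on any array, and 9 pairs (1.06%) with both probes on all 9 arrays. In 32 pairs the + probe was seen on all 9 arrays and the - probe on none and in 42 pairs the reverse. The other 358 pairs were mixed. With a more lenient mark of detection, a signal positive and significant over background, the pairs with neither probe on any array became 53 and those with both on all 9 arrays 27.

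humanlincRNA0469, whose - probe was called lower in HFD+LPS than in control and not than in HFD, had a + probe that was well above background on none of the 9 arrays. Fold changes of the probes of a pair were rarely both testable. In HFD against control 28 pairs could be tested, of which 14 moved in the same direction on both strands. In HFD+LPS against HFD it was 15 of 30 pairs, and against control 10 of 25. The correlation of the + and - fold changes across these pairs was -0.03, 0.06 and 0.05, given as a description across loci on the same arrays.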

How the data were processed

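Lung RNA from 9 mice was depleted of ribosomal RNA, labelled with Cy3 along whole transcripts and hybridised to 1-colour Agilent arrays, per the labels. The deposited scanner files hold Agilent Feature Extraction 11.0.1.1 output: the processed signal is a background-subtracted intensity, and the flags (other values of 0 or 1) mark spots well above background, positive and significant over background, or outliers. A further table, made by the authors with GeneSpring, holds deposited log2 values of the same arrays. Each of its columns has a median of 3.74 and its centring is not known further, so it served as an alternative.

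Levels were log2 of the processed signal minus the 75th percentile over the 60691 probes of each array, with outlier spots left out and 132 design control probes removed. Groups were compared with limma 3.58.1 in R 4.3.3 on all 9 arrays (6 residual degrees of freedom), with Benjamini-Hochberg adjustment over all probes tested. A probe was tested if detected on 3 or more of the 6 arrays compared, with a value in both groups. Differences between classes over arrays were tested by exact sign-flip or permutation tests (Python 3.11.15, scipy 1.17.1). The code was tested on simulated data. The samples were taken as separate mice with 1 array each. The p-values between groups therefore rest on the spread between mice and between arrays together. The sign-flip p-values show only that a gap repeats between arrays.

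The named probes were, by rule, the 2 largest rises and 2 largest falls among called probes without overlap in each comparison (the probes with the lowest p where none was called), the 5 of highest mean level and the 2 of largest SD. None of the lncRNA genes or cell type markers listed for naming could be matched to a lncRNA probe. The members, lists and rules were chosen with earlier results of these data known. Alternatives were other centrings, quantile normalisation, the authors' log2 values, normexp on the median spot signal (the files hold no mean signal), other filters, blocks for replicate, slide and row, a brightness covariate, the methods' t-test and each array left out. Slides were inferred from the scan times in the file headers, which name no slide, and rows from the array positions there.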

Additional observations from a re-analysis of the deposited data

How the results depend on the processing

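The counts of called lncRNA probes depended on most choices. For HFD+LPS against HFD, 18 became 9 with quantile normalisation, 35 with centring on probes seen on all 9 arrays, 61 with normexp, 108 with only probes seen on all 6 arrays, 0 when dim probes were kept (no filter), 3 with a fit to the 6 arrays alone, 6 with the slide as a block, 3 with the brightness covariate, 0 in row 2 of the first slide (added after seeing the data), and 0 and 1547 with the methods' t-test with and without Benjamini-Hochberg adjustment. Over all probes the 75 calls became 48, 119, 235, 362, 0, 15, 45, 17, 0, 1 and 3887 in the same order. Leaving out each array gave 1 to 169 lncRNA calls. For HFD+LPS against control, 425 became 0 with no filter, with the row block and with the brightness covariate, 179 with the slide block, and 1 and 2327 with the methods' t-test adjusted and unadjusted. Over all probes the 1126 calls became 0, 0, 0, 491, 3 and 5623 in the same order. Leaving out each array gave 2 to 367 lncRNA calls. For HFD against control the lncRNA count was 0 in every setting except the unadjusted t-test, which gave 693. Over all probes it was likewise 0 except for 1796 with that t-test. Called splits of higher and lower also moved for HFD+LPS against HFD, from 9 and 9 to 10 and 25 with centring on probes seen on all 9 arrays and to 44 and 17 with normexp. With only probes seen on all 6 arrays the split was 71 and 37. Over all probes 54 of 75, 64 of 119, 192 of 235 and 267 of 362 calls were higher in these settings. With no filter more probes were tested, and with the row block few arrays shared a row with the other group. The causes of the other shifts were not tested.

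No same-numbered mice were found to be paired: the correlation of their deviations from the group means was 0.37, 0.04 and 0.02 for HFD and control, -0.12, -0.27 and -0.04 for HFD+LPS and HFD, and -0.25, -0.04 and 0.01 for HFD+LPS and control. With the replicate block the counts of called lncRNA probes were 0, 10 and 377 in these comparisons, against 0, 18 and 425. Over all probes they were 0, 49 and 933, against 0, 75 and 1126.

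The median log2 fold change of lncRNA probes for HFD against control was 0.015 and became -0.015 with centring on ASMM10AP probes and -0.0715 with no filter. For HFD+LPS against HFD it was -0.087 and became -0.19 and -0.17 with centring on probes seen on all 9 arrays or on ASMM10AP probes, 0.13 with no filter and 0.015 with probes seen on all 6 arrays. For HFD+LPS against control it was -0.060 and became -0.19, -0.17, 0.12 and 0.018 in the same settings. Left-out arrays gave 0.0034 to 0.033, -0.095 to -0.055 and -0.080 to -0.027. The lncRNA median minus the ASMM10AP median was -0.024, -0.085 and -0.11 in the 3 comparisons, with -0.042 to -0.014, -0.10 to -0.064 and -0.14 to -0.10 when arrays were left out. With no filter it was -0.053, 0.030 and -0.0022, with normexp -0.049 for HFD+LPS against HFD and -0.0778 against control, and with the row block -0.0779 against control.

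The share of lncRNA probes detected was 68.5% by the lenient mark and 16.1% for linc names alone, with 41.5% to 44.4% when arrays were left out. The gap to ASMM10AP probes was -14.5 to -14.3 points, and the gap in median level -1.17 to -1.13, when arrays were left out. The detection gap was -10.0 points by the lenient mark, and the level gap was -0.49 for probes seen on all 9 arrays and -0.24 with normexp. The direction and the side of the threshold stayed in these settings. The median SD between mice was 0.57 for lncRNA and 0.48 for ASMM10AP probes with no filter, 0.29 for lncRNA probes seen on all 9 arrays, and 0.17 and 0.19 with normexp. In quintiles of the level it was 0.56 and 0.55 in the dimmest quintile, 0.29 for lncRNA probes in quintile 4, and 0.27 and 0.28 in the brightest. The difference between the classes, 0.015, became 0.084 with no filter, -0.0037 for probes seen on all 9 arrays, -0.021 with normexp, and 0.011, -0.00044, -0.0046, -0.0087 and -0.0077 from the dimmest to the brightest quintile. Left-out arrays gave 0.34 to 0.37 for lncRNA probes, 0.32 to 0.36 for ASMM10AP probes and 0.0097 to 0.020 for the difference. Among probes seen on all 9 arrays, the widening of the class distance with LPS kept its direction with each array left out, -0.12 to -0.082 against HFD and -0.16 to -0.11 against control, and for HFD against control it was -0.052 to 0.0012. Probes gained or lost without HFD+LPS replicate 2 were 74 and 214 against HFD and 231 and 152 against control, and strand pairs by the lenient mark were 27 with both and 53 with neither. Of the comparisons of the named probes, 58 with settings other than a left-out array and 32 with an array left out lost the call, and none changed direction among those called.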
